A study of Mus musculus with 4 samples.

Results

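The genes described here are the 75 protein-coding genes of autophagy and the lysosome that GENCODE M21 lists under a fixed set of names, out of 21755 protein-coding genes on chromosomes 1 to 19 and X. They were chosen by symbol alone: the Atg genes, the Atp6v genes, the lysosomal membrane proteins Lamp, the cathepsins (Cts) and the Gabarap and Map1lc3 families. The set also takes in Ulk1, Ulk2, Becn1, Sqstm1, Tfeb and Tfe3. Nearly all Atp6v genes encode subunits of the vacuolar proton pump. No measured value entered the choice by symbol, but the members, roles and comparison lists were set with earlier results of these data known. Within 50 kb of these genes lay 574 of the 63061 peaks of H3K27ac, the acetylation of histone H3 at lysine 27 that marks promoters and enhancers in use, in whole hearts of mice.

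The hearts came from female B6CASTF1/J mice, a first-generation cross between C57BL/6J and CAST/EiJ, at an age of 2 months, with no treatment named. The 4 libraries form 1 group: 2 biological replicates, for each of which 2 heart samples were pooled and 2 technical replicates made. Both pools carry the same donor identifier. There are 4 deposited peak lists: a replicated list, a pooled list and 1 list for each biological replicate. Values below are from the replicated list unless a replicate is named, and with 1 group and 1 list per replicate no difference was tested.

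In autophagy a kinase complex and a lipid kinase complex start a membrane sac, conjugating enzymes attach small ubiquitin-like proteins of the ATG8 family to it, and the closed vesicle fuses with a lysosome. The lysosome is acidified by the vacuolar proton pump and digests its content with cathepsins and other hydrolases. The transcription factors TFEB and TFE3 bind a short palindromic element in the promoters of many lysosomal genes, and heart muscle cells, which rarely divide, depend on this pathway to renew mitochondria and long-lived proteins.

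The element of TFEB and TFE3 was looked up by its core, the letters TCACGTGA, which read the same on both strands, in the promoter windows that RefSeq gives for build GRCm38.p6, each reaching from 250 bases before to 50 after a start. Of the 75 genes, 60 had such a window, and 6 of these genes (10%) held the core there, against 1.45% of 16433 protein-coding genes with a window. A gene with several windows was counted if any of them held the core. In 5 of the 6 genes the whole window lay under an H3K27ac peak, while in Atp6v0d1 the core fell in the gap between promoter peaks that end at 105566060 and start at 105566163. Sequences here and below were read from the reference build GRCm38.p6 only, and the CAST/EiJ alleles of the hearts were not examined. The following 48-base excerpts, in order of falling peak fold, are shown because they carry these matches. They are written from 5′ to 3′ along the coding strand with the core in capitals.
Ctsa: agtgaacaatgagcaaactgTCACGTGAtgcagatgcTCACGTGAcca
Atp6v1a: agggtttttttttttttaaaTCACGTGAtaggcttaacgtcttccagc
Atp6v0e: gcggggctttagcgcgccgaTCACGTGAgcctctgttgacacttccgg
Ctsd: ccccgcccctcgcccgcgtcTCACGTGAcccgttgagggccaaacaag
Atp6v0d1: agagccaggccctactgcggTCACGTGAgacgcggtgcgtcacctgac
Atg3: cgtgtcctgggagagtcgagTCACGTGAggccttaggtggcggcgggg

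The excerpts lie at chr2:164833740-164833787 on the plus strand for Ctsa, chr16:44139364-44139411 on the minus strand for Atp6v1a and chr17:26676378-26676425 on the plus strand for Atp6v0e. Those of Ctsd (chr7:142387899-142387946) and Atp6v0d1 (chr8:105566041-105566088) are on the minus strand, and that of Atg3 (chr16:45158737-45158784) is on the plus strand. Counted from the start of each RefSeq window's gene as 0, the core began at -132 in Atp6v1a, -99 in Ctsd, -72 in Atg3, -4 in Atp6v0d1 and 2 in Atp6v0e. Ctsa held 2 copies, at -13 and 4. The 6 genes thus comprise 3 subunits of the proton pump, 2 cathepsins and 1 conjugating enzyme, and a match describes the letters only, not a bound site.

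Most of these genes had an acetylated promoter in the heart. A promoter peak, meaning one no more than 1 kb from any transcription start site (TSS) annotated for the gene, was present at 59 of the 75 genes (78.7%), against 57.3% of all protein-coding genes. At the 5′ end of the gene itself a peak was present at 55 genes (73.3%), against 53.7%, and 58 genes (77.3%) had a promoter peak in both single-replicate lists, against 55.4%. The genes without a promoter peak were not spread evenly over the roles. Every member of the complexes that build the autophagosome had one, and all 16 without one were Atp6v, Lamp or cathepsin genes or Atg4a-ps.

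**Figure D1:**
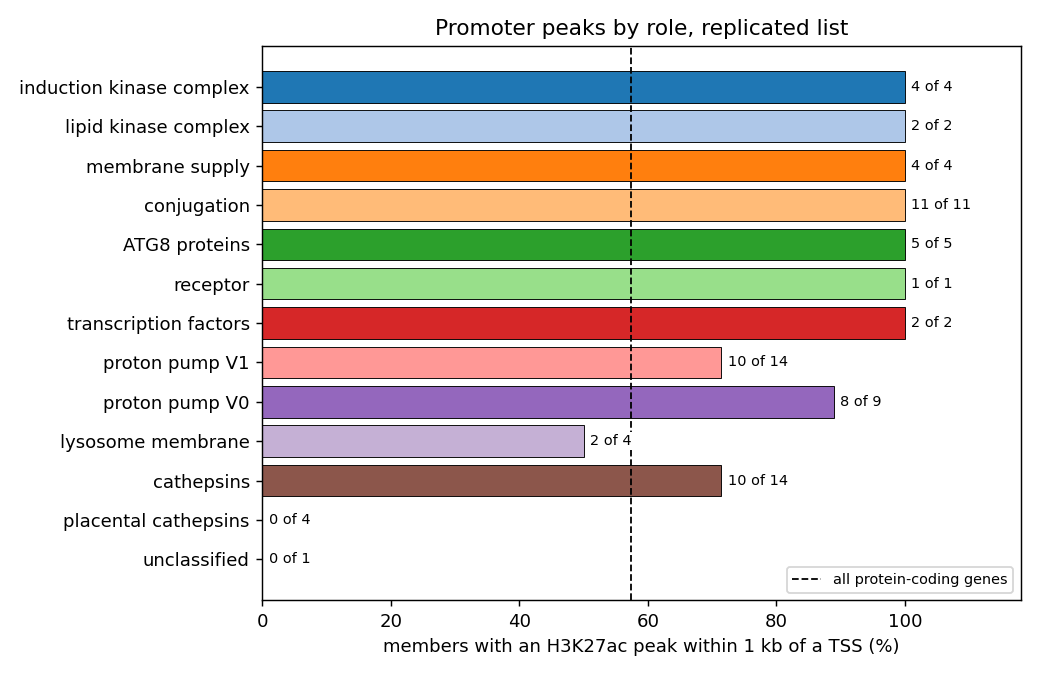
Share of genes in each role with an H3K27ac peak within 1 kb of a TSS in the replicated list, in percent, with counts beside the bars and the share of all protein-coding genes (57.3%) as a dashed line. The 7 roles from the induction kinase complex to the transcription factors reach 100% and the placental cathepsins 0%. The V0 and V1 groups of the pump, set by symbol and with Atp6v1fnb in V1, reach 88.9% and 71.4%.

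The promoter peaks of these genes were of ordinary size. Among the 59, the widest promoter peak of a gene had a median of 1569 bp, ranging from 346 to 4336 bp, against 1437 bp over the 12468 protein-coding genes with one. The fold that the authors deposited for the strongest promoter peak, read as enrichment over a control, had a median of 15.5 (range 3.70 to 40.3) against 13.2. A peak over 2 kb wide was found at 15 of the 59 (25.4%), against 29.8% of all genes with a promoter peak, and 35 of the 59 lay above the median of all genes in fold and 35 in width. The summit of the strongest peak lay downstream of the nearest TSS at 36 of the 59 (61.0%), against 64.6% of all genes.

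Signal in whole tissue cannot tell a mark in fewer cells from a weaker mark in each cell. Markers of heart muscle cells, endothelial cells and fibroblasts had promoter peaks at 6 of 6, 4 of 4 and 4 of 4 genes. Macrophage markers had 2 of 9, Spi1 and C1qb, the latter with a peak of 204 bp, while neutrophil (0 of 5), lymphocyte (0 of 4), hepatocyte (0 of 3), kidney intercalated cell (0 of 3) and placental trophoblast markers (0 of 3) had none. The macrophage calls differed between the single-replicate lists. C1qb had a promoter peak in that of replicate 1 only, and Cd68 and Ptprc in that of replicate 2 only. The list of replicate 1 covered 54.4 Mb and that of replicate 2 81.1 Mb, and sequencing depth is unknown.

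The genes that start autophagy were acetylated at all 4 promoters. Ulk1, the kinase that opens the pathway, had a promoter peak of 3303 bp with a fold of 10.7. It measured 3648 bp in replicate 1 and 5116 bp in replicate 2, so it was wide in both. Atg101, which stabilises the complex, had a narrower peak of 1718 bp (1710 and 1828 bp in replicates 1 and 2), but its fold of 40.3 was the highest of the 75 genes and stood at percentile 99.8 of genes with a promoter peak. Atg13, the adaptor subunit, had 1657 bp with a fold of 23.0 and kept a similar width in replicates 1 and 2 (1597 and 1855 bp). Its window is shared with Harbi1. Ulk2, the related kinase, had 1924 bp with a fold of 15.4.

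In the lipid kinase complex, the 2 genes that belong to the set had weaker promoter peaks. Becn1, which encodes its scaffold Beclin, had a peak of 977 bp with a fold of 6.94 (1042 and 1067 bp in the replicates). Atg14, the subunit that directs the complex to autophagosomes, had 592 bp with a fold of 10.3 (570 and 1178 bp). Its peaks lay 1.54 kb or more from the 5′ end of the gene, at internal TSSs. Both genes stood below the median of all genes with a promoter peak in width and in fold. Genes of this complex and its partners that carry other names ranged more widely in fold. They were Pik3c3 (4.64), Pik3r4 (13.5), Nrbf2 (14.3), Ambra1 (16.7), Rubcn (20.2) and Uvrag (23.4).

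Of the genes that bring lipid to the growing membrane, Atg2a and Atg2b encode lipid transfer proteins and Atg9a and Atg9b lipid scramblases. Atg2b had the widest peak, 2458 bp (1902 and 2617 bp), and Atg9a had 1896 bp with a fold of 15.7 (941 and 2050 bp). The windows of Atg2b and Atg9a are shared with Gskip and Ankzf1, respectively. Atg2a had 745 bp with a fold of 12 (773 and 1781 bp). Atg9b stood apart: its peak of 1169 bp with a fold of 4.87 lay 3.69 kb inside the gene, and its 5′ end had none. It measured 1130 bp in replicate 1 and 2115 bp in replicate 2. The strongest promoter fold was 4.39 in the list of replicate 1 and 19.8 in that of replicate 2. The strength at Atg9b thus rests on the list used, and whether both folds belong to the same peak was not tested.

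All 11 conjugation genes carried a promoter peak, with widths from 519 to 2574 bp and folds from 8.15 to 31.7. The widest was that of Atg12, a ubiquitin-like protein, at 2574 bp (2436 and 2614 bp in the replicates) with a fold of 31.7, in a promoter window shared with Ap3s1. Atg10, the enzyme that hands Atg12 to its partner Atg5, followed in fold with 29.4, and Atg4c, a protease that trims ATG8 proteins, with 24.1. Atg7, the activating enzyme of both conjugation branches, had 1242 bp with a fold of 16.4 (1269 and 1429 bp). Atg5 had a lower fold of 8.48 over 1538 bp. Atg3, the enzyme that passes ATG8 proteins to lipid, had 1878 bp with a fold of 11.7 (1892 and 2016 bp). Its window is shared with Slc35a5, to which the summit of the peak was nearest. The lowest value was that of Atg4a on the X chromosome, with 519 bp and a fold of 8.15 (317 and 803 bp). The summit of this peak was nearest to a TSS of Psmd10, in a shared window. Atg4b and Atg4d, proteases of the same family, had 1791 bp and 1569 bp with folds of 12.5 and 10.4. The peak of Atg4b lay 2.30 kb from the 5′ end of the gene, and its window is shared with Thap4.

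The ATG8 proteins, which coat the autophagosome and bind cargo receptors, had the highest median promoter width of the roles with more than 1 gene. Gabarapl1 had a single peak of 4084 bp with a fold of 30.9, and its width was nearly the same in replicates 1 and 2 (4070 and 4139 bp). Gabarap had 3391 bp with a fold of 12.6 (2795 and 3413 bp), Map1lc3a 3243 bp with a fold of 31.1 (2798 and 3335 bp) and Map1lc3b 2679 bp with a fold of 26.9 (1878 and 2989 bp). These 4 genes exceeded 2 kb in the replicated list. Gabarapl2 was the exception with 1644 bp and a fold of 15.5 (1342 and 1769 bp). The median of the 5 genes was 3243 bp, against 1569 bp for all 59 members with a promoter peak.

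Sqstm1, which encodes the cargo receptor that links ubiquitinated proteins to ATG8 proteins, had the widest promoter peak of all 75 genes. The peak, on chromosome 11 from 50209705 to 50214040, measured 4336 bp with a fold of 37.4, at percentile 99.4 for fold and 93.9 for width among genes with a promoter peak. In replicate 2 it measured 4447 bp, while in replicate 1 the widest peak was 2246 bp. As the map of its locus shows, replicate 1 has adjoining peaks over the same stretch. A TSS of Mgat4b lies in the same promoter window.

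Of the transcription factors, Tfeb had more promoter peaks than any other of the 75 genes. It had 7 of them, reaching 8 of its 14 annotated TSSs. The main peak at the 5′ end, on chromosome 17 from 47736980 to 47739369, measured 2390 bp with a fold of 26.6 (2326 and 3105 bp in the replicates). A further peak of 2171 bp with a fold of 12.6 lay 25 kb inside the gene and another of 1411 bp with a fold of 6.54 lay 31.4 kb inside. Tfe3, on the X chromosome, had 1995 bp with a fold of 13.1, and here the replicates differed more (881 and 2008 bp).

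**Figure D2:**
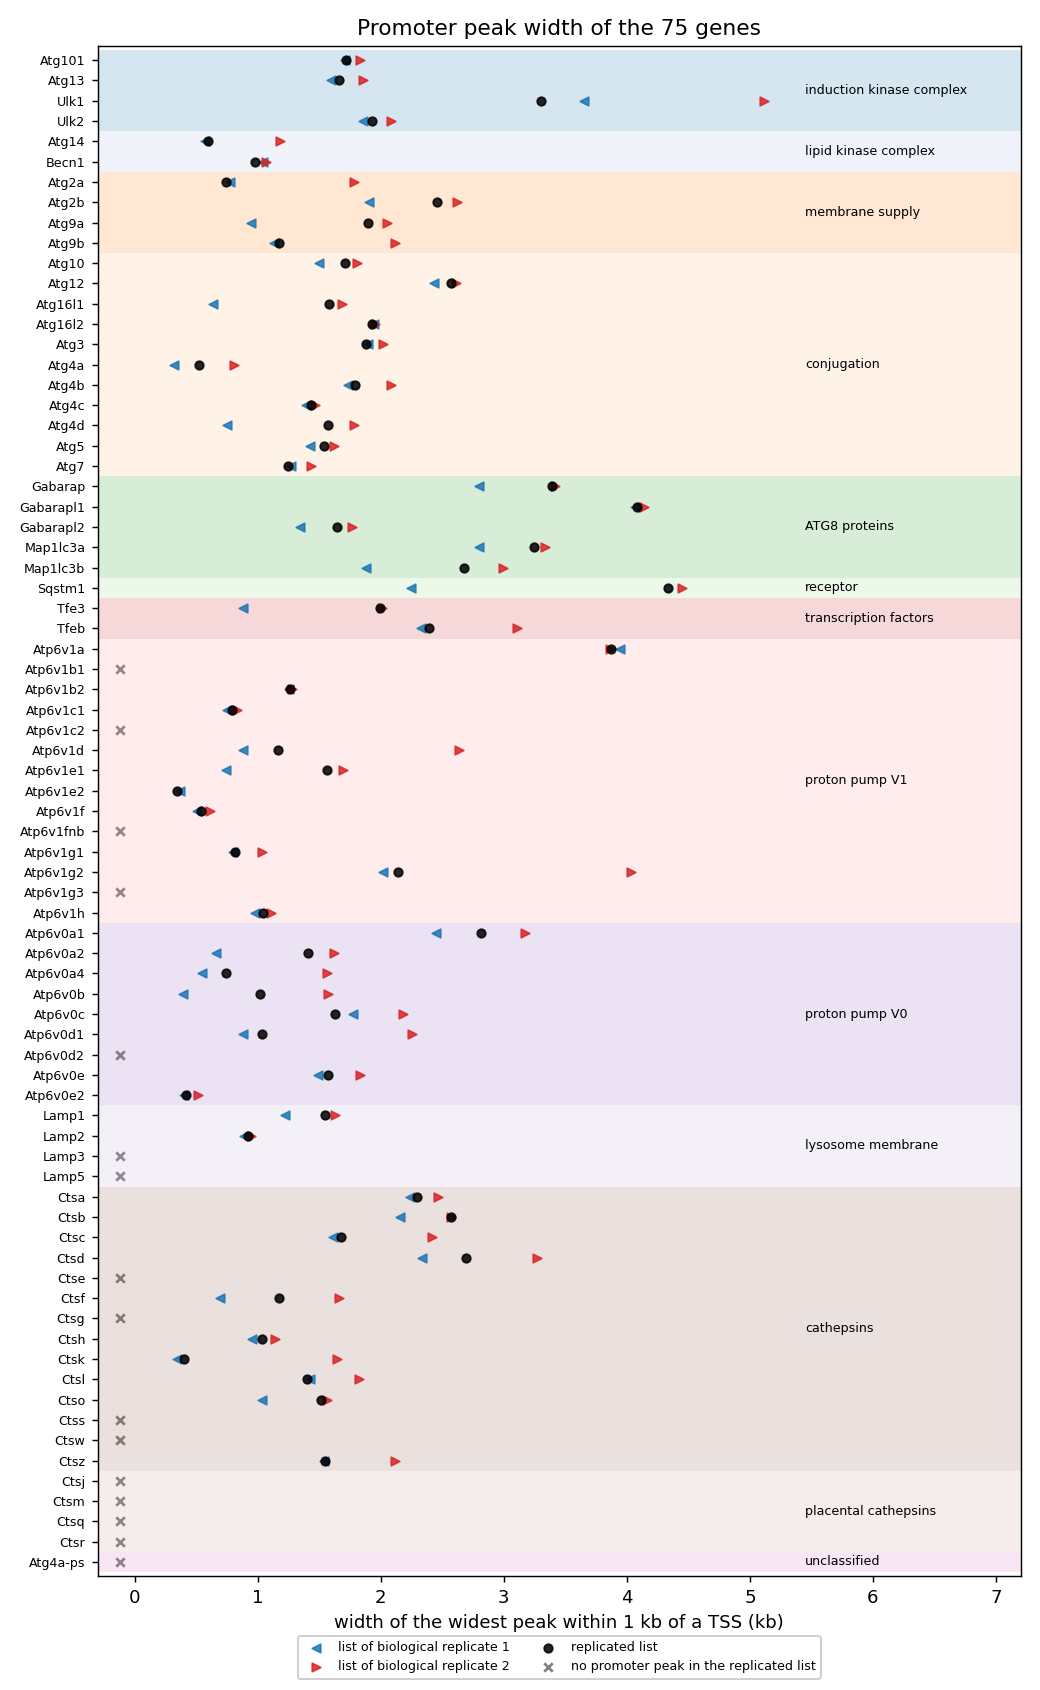
Width in kb of the widest promoter peak of each of the 75 genes, grouped by role, in the list of biological replicate 1 (blue), of replicate 2 (red) and in the replicated list (black), with a cross at the left for genes without a promoter peak. Sqstm1 (4336 bp), Gabarapl1 (4084 bp) and Atp6v1a (3873 bp) lead, and replicate 2 is wider at 57 of 58 genes.

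The vacuolar proton pump consists of V1, which hydrolyses ATP in the cytosol, and V0, which carries protons through the membrane, and several subunits exist as a widely used form and as forms of particular tissues. The widely used forms had promoter peaks. Atp6v1a, the catalytic subunit of V1, led with 3873 bp on chromosome 16 from 44138256 to 44142128 and a fold of 25.2. It measured 3942 bp in replicate 1 and 3864 bp in replicate 2, the one gene whose promoter peak was not wider in replicate 2. Its window is shared with Naa50. Atp6v1d, a subunit of the central stalk, had the highest fold of V1 at 26.6, in a window shared with Eif2s1. The summit of that peak was nearest to a TSS of Eif2s1. The peak nearest to Atp6v1d itself measured 795 bp with a fold of 7.55.

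Among V0 subunits Atp6v0c, which forms the proton-carrying ring, had a fold of 37.1 at percentile 99.4 over 1626 bp (1772 and 2178 bp). Atp6v0a1, the membrane subunit found in most tissues, had the widest peak with 2818 bp and a fold of 17.9 (2446 and 3170 bp). Atp6v0e had 1572 bp with a fold of 24.0 (1485 and 1833 bp), at an internal TSS 12.7 kb from the 5′ end of the gene. The 5′ end itself had a peak of 421 bp with a fold of 3.99. Atp6v0d1, which joins V0 to V1, had a peak of 1035 bp with a fold of 8.26 next to one of 910 bp with a fold of 14.8, and its widest measured 880 and 2252 bp in the replicates. Atp6v0b, a second ring subunit, had 1021 bp with a fold of 15.2, and it was much narrower in replicate 1 (393 bp) than in replicate 2 (1570 bp). The V0 genes thus ranged from a fold of 6.70 at Atp6v0e2 to 37.1 at Atp6v0c.

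Forms known from particular tissues were divided. Atp6v1b1 and Atp6v1g3, known from acid-secreting cells of the kidney, Atp6v1c2, known from kidney and lung, and Atp6v0d2, known from osteoclasts, had none in any of the 4 lists. Their counterparts Atp6v1b2 (1264 bp, fold 19.9), Atp6v1g1 (818 bp, 13.4), Atp6v1c1 (786 bp, 9.0) and Atp6v0d1 had one in all lists. Other such forms had one. Atp6v0a4, a kidney form, had 737 bp with a fold of 6.82 (546 and 1563 bp), in a window shared with Tmem213, and the peak was beyond 500 bp of its TSSs. Atp6v1g2, known from neurons, had 2137 bp with a fold of 18 (2017 and 4035 bp), in a window shared with Nfkbil1. The summit of that peak was nearest to a TSS of another gene. The peak nearest to Atp6v1g2 itself measured 1587 bp with a fold of 4.93. It ended at 35234369, next to the wider peak, which started at 35234456.

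Atp6v1e2, a form known from testis, was the only one of the 75 genes whose call differed between the 4 lists. Its promoter peak of 346 bp with a fold of 3.70 was the narrowest and weakest of the 59. It measured 363 bp in replicate 1 and was absent in replicate 2. Its counterpart Atp6v1e1 had 1559 bp with a fold of 17.4. Atp6v1fnb, grouped with V1 by its symbol only, had no promoter peak. Atp6v1h, a regulatory subunit, had its peak of 1045 bp at an internal TSS 12.7 kb from the 5′ end. The windows of Atp6v1h and Atp6v1b2 are shared with Rgs20 and Slc18a1, respectively.

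Of the lysosomal membrane proteins, the abundant pair had promoter peaks and the others had no peak within 50 kb. Lamp1 had a peak of 1549 bp with a fold of 11.9 and beside it one of 818 bp with a fold of 17.9, and its widest measured 1222 and 1625 bp in the replicates. Lamp2, whose loss causes a cardiomyopathy in humans, had 919 bp with a fold of 16.7 (887 and 946 bp) on the X chromosome. Lamp3, known from dendritic cells and lung epithelium, and Lamp5, known from neurons, had none in any list.

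Outside the placental cluster, 10 of 14 cathepsins had a promoter peak. Ctsd, the main aspartic protease of the lysosome, led with 2696 bp on chromosome 7 from 142385909 to 142388604 and a fold of 22.7 (2334 and 3272 bp). Ctsb, a cysteine protease, had 2567 bp with a fold of 18.6 (2159 and 2569 bp). Ctsa, a carboxypeptidase that also protects other lysosomal enzymes, had the highest fold of the group, 28.4, over 2295 bp (2239 and 2465 bp). Its promoter window holds a TSS of Neurl2 as well, which was nearer to the summit of the peak than any TSS of Ctsa. Ctsl, a further cysteine protease with a role in heart muscle of mice, had 1397 bp with a fold of 22.7 (1421 and 1819 bp). Ctsk, best known from osteoclasts, had the weakest, 402 bp with a fold of 4.26. It measured 344 bp in replicate 1 and 1641 bp in replicate 2, so its size rests on the list used.

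The cathepsins without a promoter peak outside the placental cluster are listed with cells that they are known from. Ctss, known from antigen-presenting cells, had 1.88 kb of peaks within 50 kb, of which 0.228 kb was nearest to Ctss itself. Of the macrophage markers, 2 of 9 had a promoter peak. Ctsg, a neutrophil protease, had no peak within 50 kb, beside 0 of 5 neutrophil markers with a promoter peak. Ctse, known from stomach and immune cells, had 1.33 kb, all nearest to Rab7b. Ctsw, known from cytotoxic lymphocytes, had 19.9 kb in its surroundings but none nearest to it, beside 0 of 4 lymphocyte markers. A peak came within 2.5 kb of a TSS of Ctsw. The part of cell numbers in these absences was not tested.

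The placental cathepsins, a rodent cluster on chromosome 13, had no promoter peak in any list. Ctsm, Ctsq and Ctsr had no peak within 50 kb, and Ctsj had 0.496 kb, nearest to Tpbpa, a trophoblast gene that itself had no promoter peak. Atg4a-ps, which the annotation lists as protein-coding under a symbol that marks pseudogenes, had no peak within 50 kb in the replicated list and 0.189 kb in that of replicate 1.

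The wider surroundings were measured as acetylated length, the number of bases under peaks within 50 kb of a gene, the gene included. The median was 5.72 kb for the 75 genes and 4.39 kb for all protein-coding genes. Genes with a promoter peak, however, had a median of 7.13 kb against 7.96 kb for all genes with one, and the 16 without had 0.644 kb against 0.265 kb. No peak at all within 50 kb was found for 7 of the 75 (9.33%), against 20.9%. The median was 5.05 kb in replicate 1 and 7.97 kb in replicate 2, and it was longer in replicate 2 for 67 of the 75 genes. Over all protein-coding genes the medians were 3.61 and 5.37 kb, and 17101 of 21755 were longer in replicate 2. Windows of neighbouring genes overlap, so each peak was also assigned to the protein-coding gene with the TSS nearest to its summit, and much of the long values was nearest to other genes.

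Atg2a had the most, with 36.5 kb (33.2 and 37.9 kb in the replicates), but 31.1 kb of it was nearest to Ehd1, an endocytic recycling protein, and 2.35 kb to Atg2a. Atp6v0a1 had 35.8 kb (32.9 and 41.2 kb), of which 14.2 kb was nearest to Cavin1, a coat protein of caveolae, 11.2 kb to Naglu and 5.85 kb to Atp6v0a1. Atp6v0d1 had 25.5 kb (22 and 34.1 kb), with 12 kb nearest to Ripor1 and 6.26 kb to itself. These 3 genes stand near strongly acetylated neighbours. Atg101 likewise had 24.1 kb, of which 13.7 kb was nearest to Nr4a1, a nuclear receptor, and 1.72 kb to Atg101. Becn1 had 20.4 kb with 0.977 kb of its own, and Ctsa had 18.6 kb with none of its own. The window of Atg9b, 22 kb, held 8.27 kb nearest to Kcnh2, a cardiac potassium channel, 5.80 kb nearest to Nos3, the endothelial nitric oxide synthase, and 3.49 kb nearest to Atg9b.

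The autophagosome genes Map1lc3b and Gabarap also stood among active neighbours. Map1lc3b had 22.2 kb (18.9 and 29.5 kb), of which 9.56 kb was nearest to Zcchc14, 7.63 kb to Fbxo31 and 5.02 kb to Map1lc3b. Gabarap had 21.6 kb (19.2 and 23.7 kb), which included 3.80 kb nearest to Slc2a4, the insulin-responsive glucose transporter of muscle, and 3.39 kb nearest to Gabarap. Both were longer in replicate 2. Ulk1 had 5.11 kb of its own out of 15 kb, Sqstm1 4.58 kb out of 12.4 kb, Ctsd 6.05 kb out of 13.4 kb and Lamp1 5.99 kb out of 10.5 kb. In Atp6v1g2 (1.59 kb of 19.3 kb), Atg9a (1.90 kb of 17.8 kb), Atp6v1e2 (1.18 kb of 13 kb) and Atg4d (1.57 kb of 11.3 kb) the own part was small. Atp6v1f and Atp6v1fnb, which lie side by side, shared 6.71 kb nearest to Flnc, a filamin of the muscle Z-disc, in windows of 7.87 kb and 8.11 kb.

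A few genes held a long stretch nearest to their own TSSs. Atg7 led with 11.1 kb in 11 peaks, out of 35.1 kb in its window (28 and 42.9 kb in the replicates), the rest of which, 24.0 kb, was nearest to Vgll4. Tfeb followed with 10.4 kb in 10 peaks out of 15.3 kb (12.1 and 19.3 kb). Ctsb had 9.02 kb out of 13.2 kb, Atp6v1c1 8.82 kb out of 8.82 kb, Map1lc3a 8.19 kb out of 16.0 kb and Atg13 7.95 kb out of 13.9 kb. Lamp2 had 6.81 kb in 10 peaks, all of them nearest to it, and no other protein-coding gene lies in its window. The median over the 75 genes was 1.72 kb, against 0.922 kb for all protein-coding genes. A wide promoter peak did not always stand in long surroundings: Gabarapl1, with 4084 bp at its promoter, had that 1 peak only, 4.08 kb in all.

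**Figure D3:**
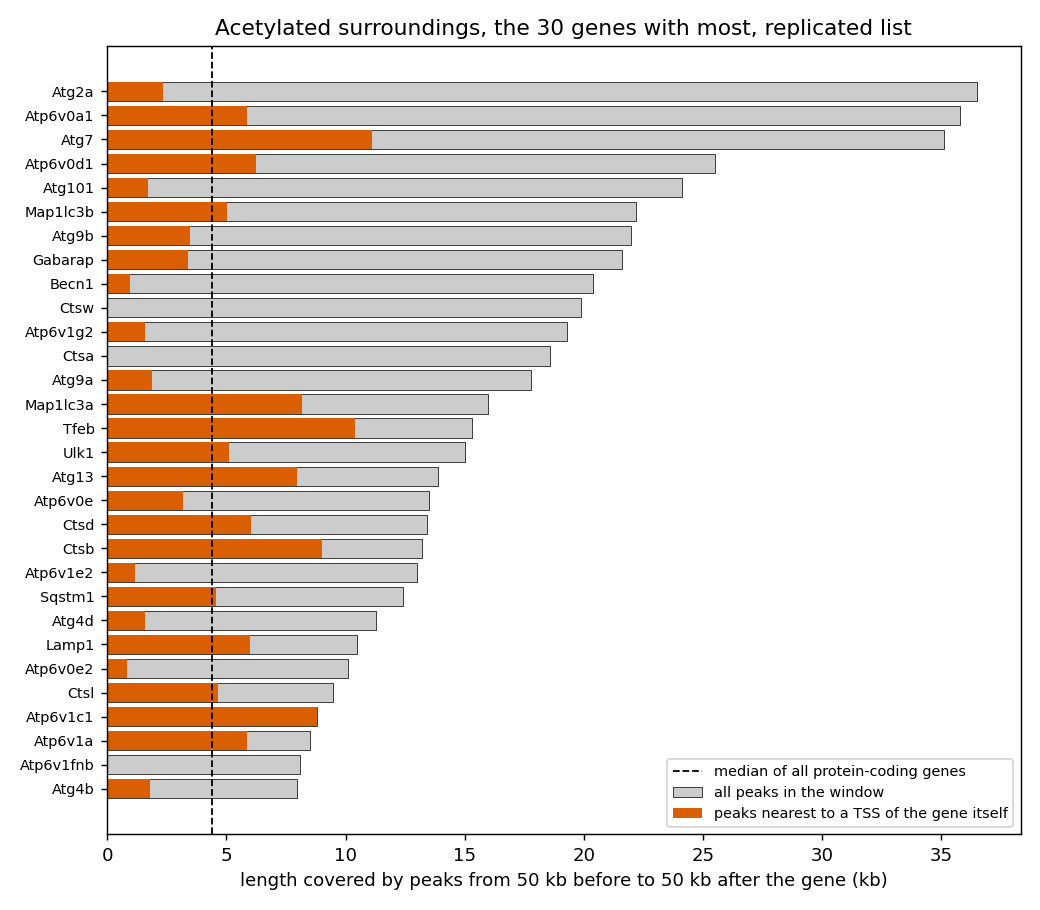
Acetylated length in kb, within 50 kb, of the 30 genes with most, from the replicated list. Grey bars give all peaks and orange bars those whose nearest protein-coding TSS belongs to the gene, and the dashed line is the median of all protein-coding genes (4.39 kb). Atg7 (11.1 kb) and Tfeb (10.4 kb) have the longest orange bars, while the long grey bars of Atg2a and Atg101 hold little orange.

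Distal peaks, over 2.5 kb from any TSS, were found within 50 kb of 52 of the 75 genes (69.3%), against 56.2%. There were 224 distinct ones, 131 in introns, 73 between genes, 11 in exons and 9 in non-coding genes. The widest that was nearest to one of the genes lay in an intron of Atp6v0d1, with 3.17 kb and a fold of 4.06. Atp6v1c1, which had a promoter peak of only 786 bp, had 4 distal peaks of at least 1 kb behind its 3′ end. The widest of these measured 3.02 kb with a fold of 13, 48.9 kb from the 5′ end of the gene. Other wide ones were 2.77 kb in an intron of Atg7 (fold 6.26), 2.48 kb beside Map1lc3a in an intron of Pigu (8.63), 2.43 kb at -29.9 kb from the 5′ end of Ctsl (8.91) and 2.25 kb in an intron of Atg13 (12.3). Ctsd had one of 1.96 kb at -6.84 kb (6.35), that is upstream. The 25 widest of this kind each met a peak in the lists of replicate 1 and of replicate 2.

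**Figure D4:**
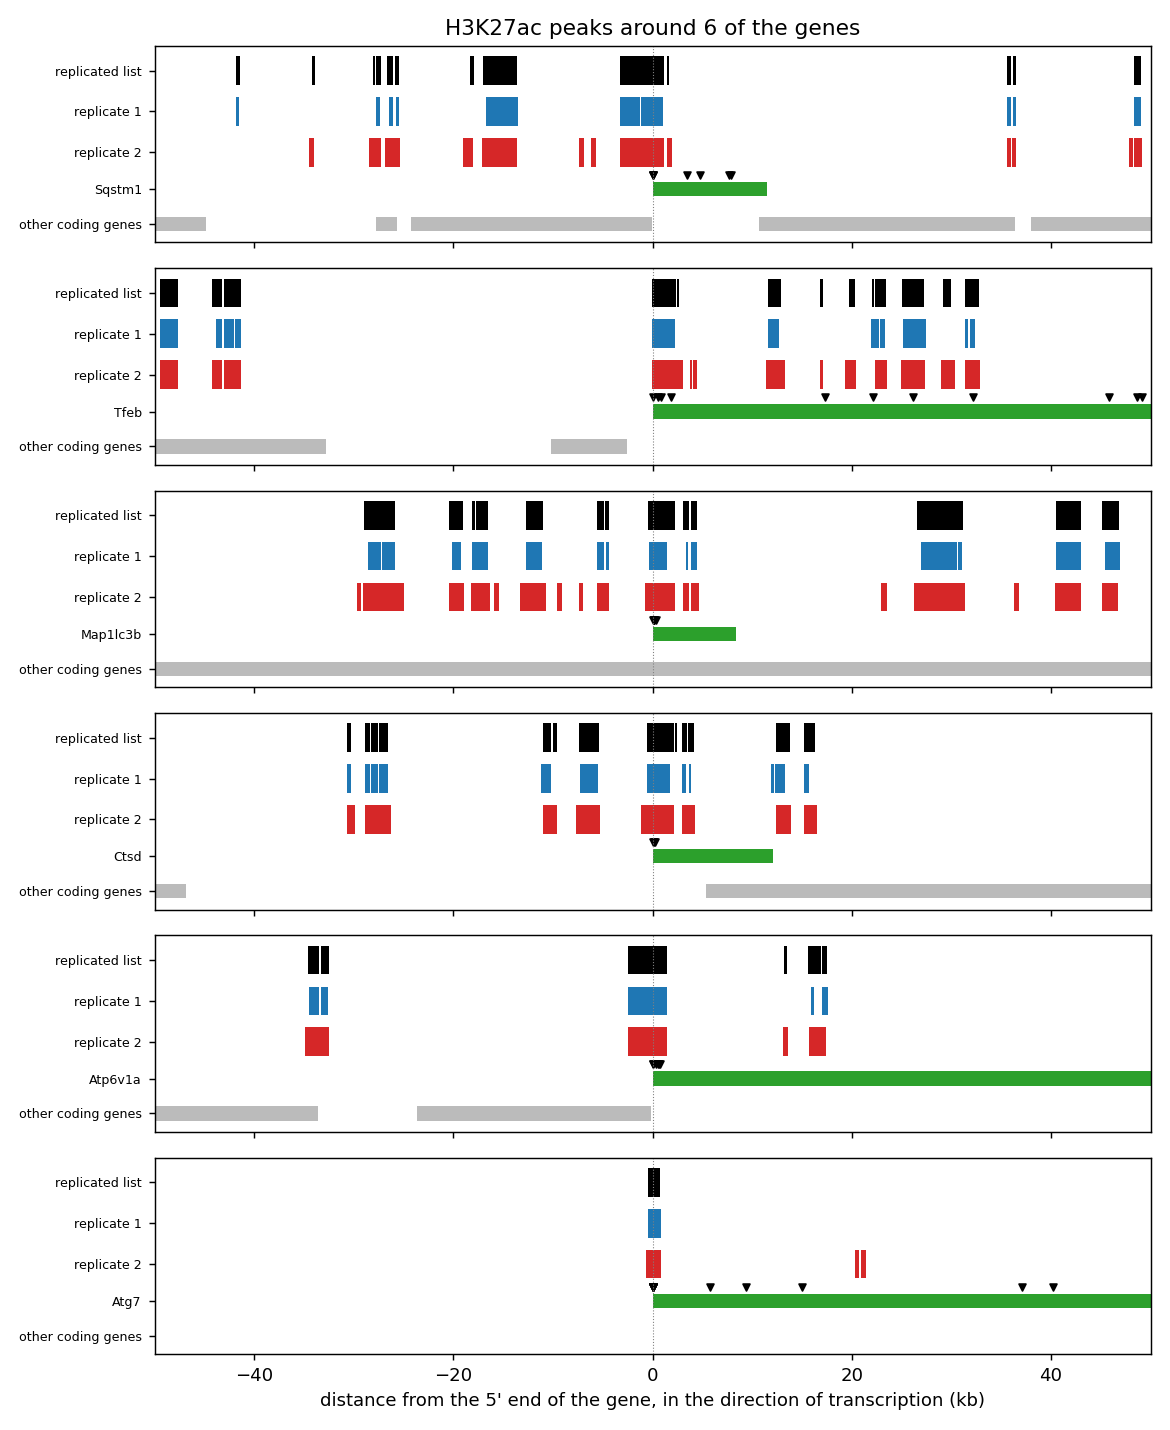
Peaks in the replicated list (black) and in the lists of replicate 1 (blue) and replicate 2 (red) within 50 kb on either side of the 5′ end of 6 of the genes, drawn in the direction of transcription in kb, with the gene in green, its TSSs as triangles and other protein-coding genes in grey. Tfeb has peaks along the first 33 kb of the gene, Map1lc3b and Ctsd have peaks on both sides, and Atg7 has its promoter peak alone in this range of the replicated list, its other peaks lying farther inside the gene.

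The promoter sequence differed between genes with and without a peak. The CpG ratio is the observed over the expected number of CpG dinucleotides in the RefSeq window, the highest where a gene has several. It was at least 0.6 in 32 of the 60 genes with a window. Of these, 31 (96.9%) had a promoter peak, against 86.0% of 8672 such genes in all. The exception was Atp6v1c2, with a ratio of 0.679 and no peak. Below 0.6, 17 of 28 (60.7%) had a promoter peak, against 29.0% of 7761. Among those 17 were Ctsk (0.155), Atg9b (0.104) and Atp6v0a4 (0.0579), with folds of 4.26, 4.87 (19.8 in the list of replicate 2) and 6.82, and Atg7 (0.296), whose fold was 16.4. The ratio at the 6 windows with the TFEB core spanned the threshold, with Ctsa below it.

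**Figure D5:**
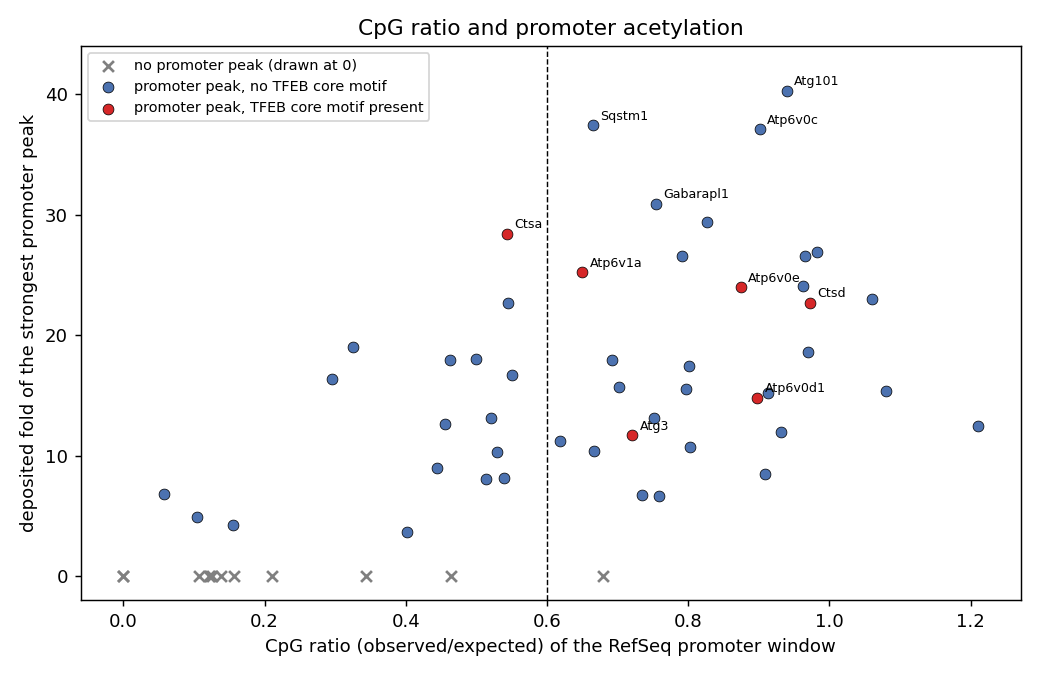
Deposited fold of the strongest promoter peak against the CpG ratio of the RefSeq window for the 60 genes with a window, with genes without a promoter peak drawn as crosses at 0, genes with the TFEB core in red and the ratio of 0.6 as a dashed line. One cross, Atp6v1c2 at 0.679, lies right of the line, and the red points spread from Atg3 (11.7) to Ctsa (28.4).

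Other motifs were searched in the same windows on both strands. The E-box CACGTG, which the TFEB core contains, was present in 13 of 60 genes (21.7%), against 9.22% of all protein-coding genes with a window. The 13 were Ctsa, Ctsd, Ctsf, Ctsl, Atg3, Atg5, Atg7, Atg14, Lamp1, Atp6v0b, Atp6v0d1, Atp6v0e and Atp6v1a, all with a promoter peak. Of all 1515 protein-coding genes with an E-box in the window, 1139 had a promoter peak, as had 48 of the 60 genes here. The M-box TCATGTG was present in 3 of 60 (5%), namely Ctsa, Ctss and Atp6v0c, against 3.47%. Among genes with a promoter peak the TFEB core was in the windows of 6 of 48 genes (12.5%), against 2.16%. In the 500 bp around the summit of the strongest promoter peak it was found at 5 of 48 genes (10.4%), namely Atg10, Atp6v0e, Atp6v1a, Atp6v1e1 and Ctsa, against 2.00% of 9710. The genes Atp6v0e, Atp6v1a and Ctsa thus held it in both windows.

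The rest of the pathway, taken from lists of genes named otherwise, was acetylated at nearly every promoter. Of 28 further autophagy genes 27 had a promoter peak (96.4%), all but the receptor Calcoco2, against 57.3% of all protein-coding genes. Mitophagy genes among them included Pink1, the kinase that marks damaged mitochondria, with 4231 bp and a fold of 25.8, and Bnip3, a mitophagy receptor, with 4893 bp and a fold of 17.6. Of 45 further lysosomal genes 44 had one (97.8%), all but Cd68, a macrophage marker. Cd68 had one in the list of replicate 2 but not in that of replicate 1. Psap, the precursor of the saposins, reached 4934 bp. Of 23 regulators 21 had one (91.3%), all but Tfec and Rragb. Foxo3, a transcription factor of autophagy genes, had 4762 bp with a fold of 31.3, and Flcn, which controls TFEB through the Rag GTPases, had a fold of 37.1. Mitf, of the same family as Tfeb, had 1924 bp with a fold of 10.6.

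The replicates differed in width more than in calls. A promoter peak was found at 59 of the 75 genes in the list of replicate 1 and at 58 in that of replicate 2. Where both had one, it was wider in replicate 2 at 57 of 58 genes (98.3%), with a median ratio of 1.30, against 94.1% and 1.31 over all protein-coding genes. The members thus followed the lists as a whole. A stretch split into adjoining peaks in replicate 1 can be a single peak in replicate 2, as at Sqstm1. The part of such splitting in the other widths was not tested. Ctsk had the largest ratio, and widths were closest at Atg16l2 (1944 and 1955 bp), Gabarapl1 and Atp6v1b2 (1254 and 1279 bp).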

How the data were processed

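H3K27ac chromatin immunoprecipitation was sequenced in 4 libraries of 1 group. The deposited peak lists give a fold (a ratio) and a −log10 q-value per peak, both the authors' values. Per the labels and the deposited text files, positions are on mm10 and technical replicates were joined before calling. For the aligner and peak caller, not given in the sources used here, no name is stated, and read depth is unknown. Genes came from GENCODE M21 on GRCm38, and sequences from RefSeq (GRCm38.p6). Distances, covered lengths and motifs were computed with Python 3.11.15, numpy 2.4.6, pandas 2.3.3 and pysam 0.24.0. The promoter call and the acetylated length were tested on simulated peaks. The assignment of peaks to the nearest TSS was not tested in this way. Fold was compared within a list only, except at Atg9b, where folds from different lists are set side by side. The members, roles and lists were chosen with earlier results of these data known. Genes named with values were the 3 of each role with most acetylated length, the 10 with the widest promoter peak, those without one, those whose call differed between lists and those with the TFEB core. Others, such as Atg10, Atp6v0c and Ctsk, were chosen after their values were seen.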

Additional observations from a re-analysis of the deposited data

How the results depend on the processing

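The number of genes with a promoter peak was 59 of 75. It ranged from 55, at the 5′ end only, to 60, with a 2.5 kb window, and was 58 or 59 when either replicate was left out. Without the 15 genes that share a promoter window it was 44 of 60. The median acetylated length of 5.72 kb ranged from 5.05 to 7.97 kb when one replicate was left out, and was 11.1 kb with 100 kb flanks and 1.72 kb from peaks nearest to the gene itself, since these settings count more or fewer peaks. Genes with a distal peak fell from 52 to 34 when only peaks with at least the median fold of the list were kept. The TFEB core was found in the windows of 6 genes, and the E-box it contains in those of 13. Promoter peaks in both single-replicate lists numbered 58, and 43 when they had to overlap by 50% of each. For the counts of 44, 34 and 43 no share of all protein-coding genes at the same setting is given. They describe the members only. No paired analysis was possible because there is 1 group. With no depth per library and 1 list per replicate, a peak missing from a list was not detected there, and is not shown to be absent.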
